A study of Homo sapiens with 10 samples.

Results

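The alveolar identity genes examined here are 10 human genes by which the gas-exchanging epithelium of the lung is recognised: the surfactant proteins SFTPB, SFTPC and SFTPD, the type 2 cell genes NAPSA, SLC34A2 and LAMP3, the transcription factors NKX2-1 and ETV5, and the type 1 cell genes HOPX and CAV1. They were taken by name from a count table of 33551 rows, and all 10 had a row. The table covered 10 RNA-sequencing libraries of A549, a long-established line from a human lung adenocarcinoma that the labels describe as alveolar basal epithelial. There were 5 lines: 1 wild type for ABCA3 (WT), 1 whose label says ABCA3 knockout (KO), and 3 labelled with the ABCA3 variants L101P, E292V and E690K. Each line gave 1 library labelled untreated and 1 library labelled as transduced overnight with the lentiviral vector LV-ABCA3:GFP at a multiplicity of infection of 20. A genotype is thus 1 line, the labels do not say whether it is 1 clone, and all lines share the A549 background. A p-value below measures only the spread between these libraries. A change in cell makeup and a change in RNA per cell cannot be told apart in such bulk samples.

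Alveolar type 2 cells make surfactant, the lipid and protein film that lowers surface tension, and store it in lamellar bodies, to which ABCA3 carries lipids. NKX2-1 is the transcription factor that sets lung epithelial fate and acts on the surfactant protein genes. ETV5, an ETS factor downstream of fibroblast growth factor and Ras signalling, is needed to keep type 2 cells in their state. Flat type 1 cells form the exchange surface and are rich in caveolae, membrane pits whose coat is built on caveolin-1, the product of CAV1.

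The labels were first checked on ABCA3 and on a row for EGFP, the tag of the vector. ABCA3 lay between 356 and 1151 CPM (counts scaled to the library total times edgeR's TMM factor) in 9 libraries and at 26.0 CPM in the library labelled KO transduced, where EGFP had 4 counts. The library labelled KO untreated had 600 CPM of ABCA3 and 2842 counts of EGFP. The KO pair thus went against its labels. EGFP was also present without the vector label: it stood at 69.7 CPM in untreated and 151 CPM in transduced WT, at 1.01 and 36.9 CPM in L101P, at 20.2 and 66.0 CPM in E292V, and at 16.5 and 18.5 CPM in E690K. Untreated WT thus exceeded the transduced L101P, E292V and E690K libraries, and the comparison of vector with untreated below follows the labels and not the presence of EGFP. Library totals ran from 59430095 to 96811421 counts.

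The 10 genes split into 2 that were plainly expressed and 8 that had at most 95 counts in any library. Among these 8, SFTPD, NAPSA and LAMP3 had counts in all 10 libraries, whereas HOPX had 1 count in total. CAV1 averaged 404 ± 102 CPM and ETV5 58.3 ± 3.70 CPM (SD over the 10 libraries), while the means of the other 8 lay between 0.00118 CPM for HOPX and 0.684 CPM for NAPSA. Per kilobase of exon, CAV1 stood at 99.0 ± 25.0 RPKM and ETV5 at 10.0 ± 0.637 RPKM (SD, n = 10 libraries), a ratio of 9.86 between the means. The length is that of all annotated exons of a gene merged, so RPKM compares genes only roughly. NAPSA was above SFTPD in CPM (0.684 and 0.308) and below it in RPKM (0.191 and 0.233). The means of the other 8 genes ran from 1.52e-04 to 0.233 RPKM, and the highest value in any single library was 0.358 RPKM, for SFTPD. Among rows with a count, the level of CAV1 stood at the 98.7th percentile and that of ETV5 at the 83.9th. Of the 10 genes the lines thus carried CAV1 and ETV5 and little or no transcript of the others.

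**Figure D1:**
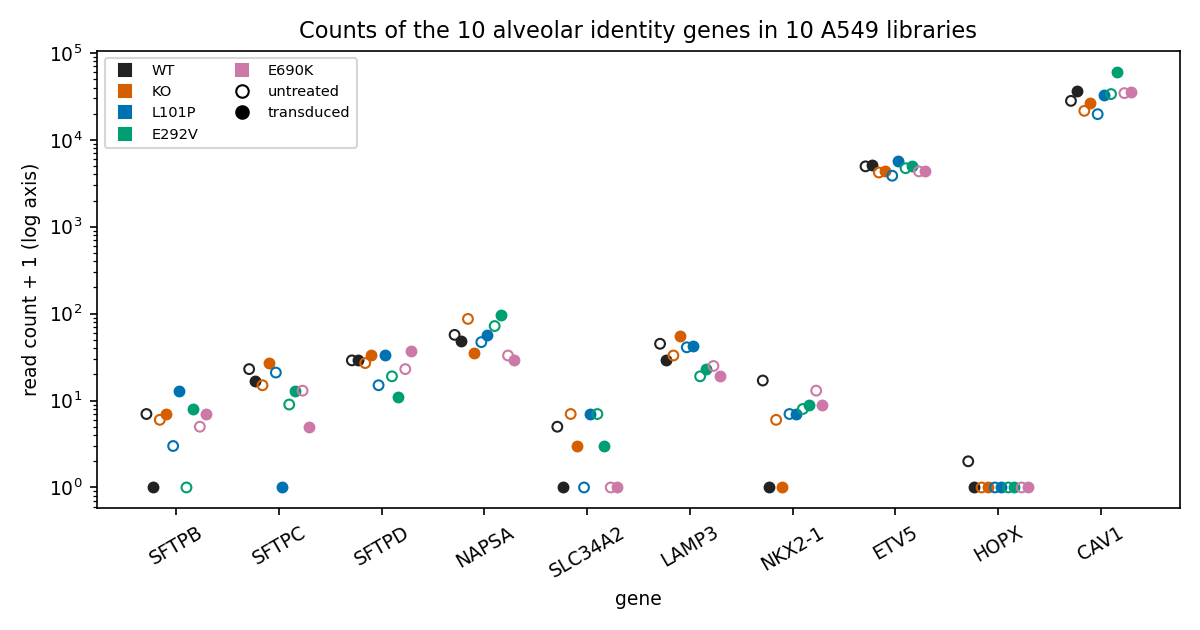
Read count plus 1 (log axis) of the 10 alveolar identity genes in each library, with 1 point per library, colour for the line, open points for untreated and filled points for transduced libraries. CAV1 (19742 to 61061 counts) and ETV5 (3864 to 5754 counts) stand apart from the other 8 genes, none of which exceeded 95 counts in a library.

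Promoter sequences of 2 of the surfactant genes are shown because they are the DNA that NKX2-1 is known to act on and both genes were nearly silent here. Of the 10 genes, 7 had an entry in the RefSeq promoter table. Both sequences run 5′ to 3′ on the minus strand of GRCh38.p14, end at or before the transcription start, and carry in capitals every match to CTNNAG, the core of sites bound by NKX2-1, which reads the same on both strands. The SFTPB window, chr2:85668252-85668449, spans 52 to 250 bases before the start, with 52 exon bases of another listed start left out. The SFTPD window, chr10:79949106-79949355, spans the 250 bases before the start.
SFTPB: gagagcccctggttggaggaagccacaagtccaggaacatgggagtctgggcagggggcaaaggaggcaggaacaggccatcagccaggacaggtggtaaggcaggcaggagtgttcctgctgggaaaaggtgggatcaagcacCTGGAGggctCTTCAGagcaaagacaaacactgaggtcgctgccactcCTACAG
SFTPD: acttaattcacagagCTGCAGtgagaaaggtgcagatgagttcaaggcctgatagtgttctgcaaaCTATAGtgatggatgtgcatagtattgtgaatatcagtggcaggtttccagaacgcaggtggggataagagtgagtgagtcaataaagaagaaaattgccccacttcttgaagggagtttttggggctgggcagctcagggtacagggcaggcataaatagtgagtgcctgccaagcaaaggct
The SFTPB window held 3 matches and the SFTPD window 2. Of 35114 promoters, 59.2% held at least 1 match in the SFTPB window and 6.70% as many as SFTPB. In the SFTPD window 67.0% held at least 1 and 31.1% as many as SFTPD. TGTTT, a part of forkhead factor sites, was searched on both strands; it occurred once in the SFTPB window and not in that of SFTPD, against 35.5% and 40.4% of promoters in the same windows. Both windows held 1 CpG, where the median over all promoters was 7 and 11. These matches are letters in a window, and no binding was measured.

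The surfactant protein genes were read at a handful of counts in every line. SFTPB, on chromosome 2 (85657314 to 85668741, minus strand, GRCh38, GENCODE release 29), encodes the small hydrophobic protein without which lamellar bodies do not mature. In the untreated libraries it had 6 counts in WT, 5 in the library labelled KO, 2 in L101P and then 0 in E292V and 4 in E690K. In the transduced libraries it had 0, 6, 12, 7 and 6 counts in the same order. The 2 zeros fell in different lines and treatments, and the untreated range of 0 to 6 counts lay within the transduced range of 0 to 12.

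SFTPC encodes the other hydrophobic surfactant protein, which in the lung is made by type 2 cells, and lies on chromosome 8 (22156913 to 22164479, plus strand). It had 22 counts in WT, 14 in the library labelled KO, 20 in L101P and then 8 in E292V and 12 in E690K when untreated. The transduced libraries had 16, 26, 0, 12 and 4 counts. The L101P pair held the widest step, from 20 counts (0.337 CPM on the plain library total, 95% Wilson interval 0.183 to 0.620) to 0 counts, which allows up to 0.0794 CPM. In the other 4 lines the intervals of the untreated and the transduced library overlapped. LGI3, a gene on the opposite strand that overlaps SFTPC, reached 434 counts, and strand use in the counting is not stated, so reads of one cannot be separated from the other where they overlap.

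SFTPD, a soluble collectin of airway defence on chromosome 10 (79937740 to 79982614, minus strand), was the highest of the 3. It had 28 counts in WT, 26 in the library labelled KO, 14 in L101P and then 18 in E292V and 22 in E690K untreated. After transduction the counts were 28, 32, 32, 10 and 36. E292V was the lowest line after transduction and L101P the lowest before it in counts, although at 0.235 CPM untreated L101P stood above untreated E292V at 0.222 CPM.

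The type 2 cell genes of processing and transport were also low, NAPSA least so. NAPSA encodes napsin A, an aspartic protease that trims surfactant protein precursors, and lies on chromosome 19 (50358477 to 50365830, minus strand). Its untreated counts were 56 in WT, 86 in the library labelled KO, 46 in L101P and then 71 in E292V and 32 in E690K. Its transduced counts were 48, 34, 56, 95 and 28. Both E690K libraries, at 0.428 and 0.368 CPM, were below both E292V libraries, at 0.876 and 0.989 CPM, whereas the library labelled KO transduced, at 0.422 CPM, stood with E690K and its untreated partner, at 1.15 CPM, above all others. NAPSA overlaps NR1H2 on the opposite strand, which had up to 14473 counts, so a small share of such reads could make up the whole NAPSA count, and this was not tested.

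LAMP3, a lysosome-associated membrane protein of lamellar bodies on chromosome 3 (183122213 to 183163839, minus strand), had 44 counts in WT, 32 in the library labelled KO, 40 in L101P and then 18 in E292V and 24 in E690K untreated. Its transduced counts were 28, 54, 42, 22 and 18. The 4 E292V and E690K libraries, at 0.222 to 0.321 CPM, lay below the 6 libraries of the other lines, at 0.340 to 0.671 CPM. The closest of them had overlapping Wilson intervals. On the plain library total these were 0.182 to 0.555 CPM in untreated E690K and 0.205 to 0.579 CPM in transduced WT. The grouping of LAMP3 was noticed in the values, and the line contrasts with WT did not pass the test. How many other genes split this way was not counted. SLC34A2, the phosphate transporter NaPi2b on chromosome 4 (25648011 to 25678748, plus strand), had 0 to 6 counts per library, with 0 in 4 libraries of 3 lines.

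NKX2-1 (chromosome 14, 36516392 to 36521149, minus strand; written NKX2.1 in the table) was nearly absent. It had 16 counts in WT, 5 in the library labelled KO, 6 in L101P and then 7 in E292V and 12 in E690K untreated, and 0, 0, 6, 8 and 8 counts after transduction. The highest value, 0.192 CPM on the plain library total in untreated WT, had a Wilson interval of 0.0970 to 0.378 CPM, and the 0 of its transduced partner allowed up to 0.0946 CPM. The other pairs overlapped in their intervals. Over the 18 member values of 0 counts in all, the upper limits ran from 0.0794 to 0.129 CPM.

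Other factors of the lung epithelium, from a list of 16, were read at ordinary levels. FOXA2, a forkhead factor of gut and airway epithelium, ran from 15.4 to 23.4 RPKM over the 10 libraries, and KLF5 from 16.4 to 32.0 RPKM. ETV4, a relative of ETV5, ran from 14.0 to 32.5 RPKM. GRHL2, a factor of epithelial junctions, was at 0 to 0.0205 RPKM and stood with NKX2-1 at the bottom of the list. Of the 16, 14 averaged at least 1 CPM.

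ETV5 was the steadier of the 2 plainly expressed members. It lies on chromosome 3 (186046308 to 186110318, minus strand) and had 3864 to 5754 counts per library. Its untreated levels were 58.3 CPM in WT, 56.1 in the library labelled KO, 64.7 in L101P and then 58.2 in E292V and 58.0 in E690K, and its transduced levels were 62.2, 54.6, 61.2, 52.1 and 57.2 CPM. The highest library was 1.24 times the lowest. Its standard deviation on the log2(CPM + 0.5) scale was 0.09, at the 27.5th percentile of the 9459 genes that averaged 10 CPM or more, whose median was 0.12. Ordered by line mean, E292V (55.1 CPM), KO (55.4) and E690K (57.6) were followed by WT (60.3) and L101P (63.0). Among neighbours in this order, E292V overlapped KO and WT overlapped L101P. The KO pair (54.6 to 56.1 CPM), the E690K pair (57.2 to 58.0) and the WT pair (58.3 to 62.2) followed each other without overlap, and no difference among the lines passed the test given below. ETV5 overlaps DGKG on the same strand, which had up to 1712 counts.

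HOPX, a homeodomain protein without DNA binding of its own that marks type 1 cells (chromosome 4, 56647988 to 56681899, minus strand), had 1 count in the untreated WT library and 0 in the other 9. Of the type 1 genes among the 10, CAV1 alone was thus plainly expressed, and a single gene does not establish type 1 identity. The wider type 1 list gave a mixed picture. PDPN, the podoplanin gene of type 1 cells, was at 0 in all 10 libraries, AQP5, their water channel, was at 0 to 0.131 CPM, and AGER, the receptor by which type 1 cells are most often named, was at 1.59 to 2.92 CPM. CAVIN1, which coats caveolae together with caveolin-1, ran from 157 to 267 RPKM.

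CAV1 was the one member called in the test over the lines given below. It lies on chromosome 7 (116524785 to 116561184, plus strand). The untreated libraries had 330 CPM in WT, 287 in the library labelled KO, 331 in L101P and then 415 in E292V and 461 in E690K. The transduced libraries had 439, 334, 348, 636 and 462 CPM in the same order. The lowest and highest libraries differed 2.21-fold. Ordered by line mean, KO (311 CPM) and L101P (340) came first, followed by WT (385), E690K (461) and E292V (525). Neighbours overlapped, KO with L101P, L101P with WT, and E690K with E292V, except that both WT libraries lay below both E690K libraries. Its standard deviation on the log2(CPM + 0.5) scale was 0.34, against the median of 0.12 over the same 9459 genes.

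**Figure D2:**
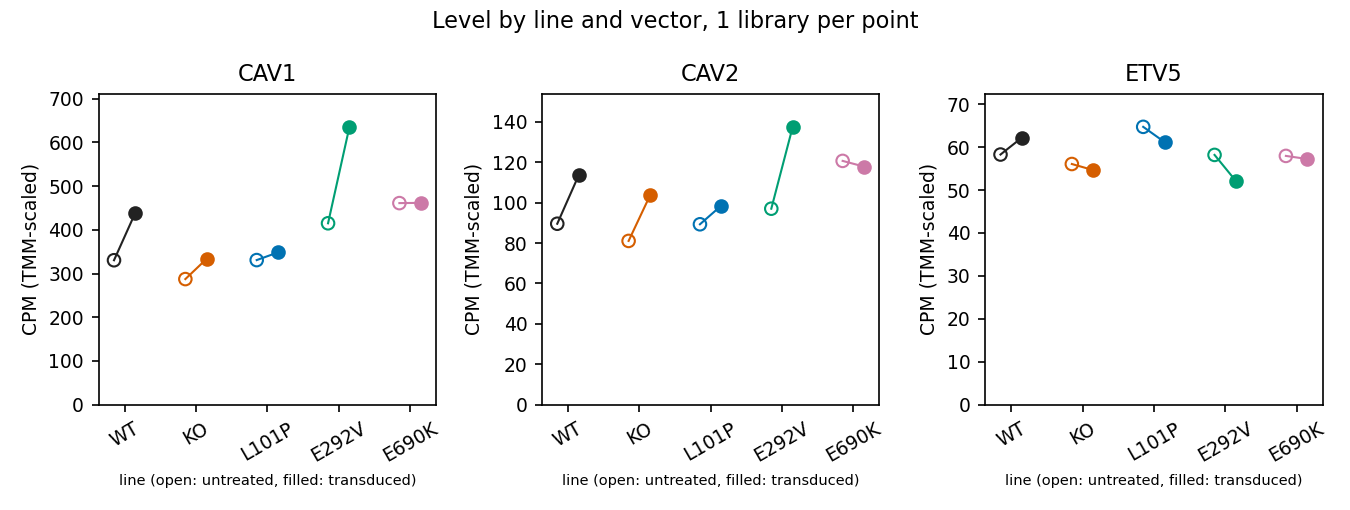
Level in TMM-scaled CPM of CAV1, its neighbour CAV2 and ETV5 by line, with an open point for the untreated and a filled point for the transduced library, joined by a line within each cell line. CAV1 ran from 287 to 636 CPM with its highest point in transduced E292V, CAV2 followed a similar order from 81.1 to 138 CPM, and ETV5 stayed within 52.1 to 64.7 CPM.

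To ask which of the genes differed among the lines, 1 additive fit of line and vector was made with edgeR on the whole table, in which 17978 genes were tested after a filter on low counts. Of the 10 members, 7 passed that filter; SFTPB, SLC34A2 and HOPX did not and have no test. A gene was called at a Benjamini-Hochberg adjusted p under 0.05 by edgeR's quasi-likelihood test. In the test of any difference among the 5 lines, 13% of all genes tested were called, and 1 of the 7 members was: CAV1, whose fitted line means spanned 0.74 on the log2 scale (edgeR adjusted p = 0.00507). DESeq2 also called CAV1 alone among the members. CAV1 was called in each of 21 alternative settings, with adjusted p up to 0.0400. ETV5 did not pass (range 0.19 on the log2 scale, edgeR adjusted p = 0.389), and the other 5 members had edgeR adjusted p from 0.438 to 0.868.

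Against WT, no single line passed the edgeR test for any member. For the line labelled KO, 0 of 7 members were called where 1.8% of all genes were (0.807% higher, 0.99% lower). For L101P it was 0 members where 3.94% of genes were called (2.33% higher, 1.61% lower). For E292V it was 0 where 1.05% were (0.295% higher, 0.756% lower), and for E690K 0 where 5.38% were (3.05% higher, 2.33% lower). At an unadjusted p under 0.05 there was 1 member, CAV1, in the KO, E292V and E690K contrasts and 0 in the L101P contrast, where 14.1%, 10.3%, 19.3% and 18.3% of all genes had such a p. DESeq2 called 1 member for E292V, with 432 genes in all, and 0 for KO, L101P and E690K, with 744, 1236 and 1464 genes.

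The CAV1 fold change was widest in E292V, where it was 0.44 on the log2 scale (SE 0.12, edgeR adjusted p = 0.140), with the level above WT in both the untreated and the transduced pair. That value rested on the transduced E292V library: without it the log2 fold change was 0.21, and without the untreated E292V library it was 0.65 (edgeR adjusted p = 0.0156). DESeq2 called it (log2 fold change 0.44, adjusted p = 0.0104), as did edgeR without a filter (adjusted p = 5.58e-04), without the L101P pair (0.0134), without untreated L101P (0.00454) and without transduced L101P (0.00467). For E690K the CAV1 log2 fold change was 0.28 (SE 0.12, edgeR adjusted p = 0.222), and 0.11 without the untreated E690K library. It passed without untreated L101P (0.28, edgeR adjusted p = 0.0497) and with no filter (0.28, adjusted p = 0.0394). For the line labelled KO it was -0.30 (SE 0.12, edgeR adjusted p = 0.275), which passed with no filter (-0.30, adjusted p = 0.0386) and was -0.19 without transduced WT. For L101P it was -0.17 (SE 0.12, edgeR adjusted p = 0.521), with -0.051 without transduced L101P, -0.064 without transduced WT, -0.29 without untreated L101P and -0.26 without untreated WT.

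On the log2 scale the ETV5 difference from WT was 0.06 in L101P and -0.12 in the line labelled KO, and it was -0.13 in E292V and -0.07 in E690K, each with an SE of 0.083 and an edgeR adjusted p from 0.569 to 0.760. No ETV5 difference from WT reached 2 standard errors. The 5 low members that passed the filter had standard errors between 0.48 and 1.61 in the line contrasts, which is the precision their depth allowed, and their edgeR adjusted p ran from 0.549 to 0.953.

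**Figure D3:**
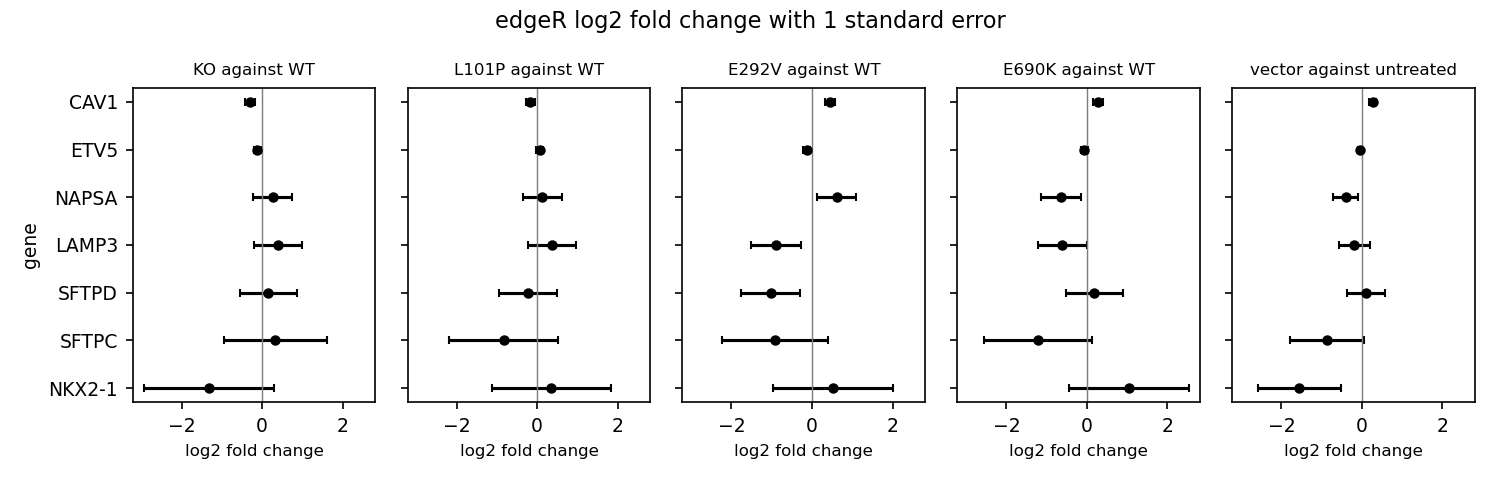
Log2 fold change from the additive edgeR fit for the 7 members that passed the filter, in a panel for each line against WT and for vector against untreated, with bars of 1 standard error. The bars of CAV1 (0.12 in the line contrasts) and ETV5 (0.083) are short, while those of the low genes reach 1.61.

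The second question was whether the vector moved these genes. Over the 5 pairs edgeR called 0 of 7 members where 0% of all genes were called; 1236 genes and 1 member, CAV1, had an unadjusted p under 0.05, and DESeq2 called 113 genes and 0 members. CAV1 was higher in the transduced library of all 5 lines on the TMM scale, though in E690K the direction flipped on plain library totals (456 CPM untreated, 450 CPM transduced). The difference was 0.26 ± 0.25 on the log2 scale (SD, n = 5 lines; fitted value 0.26, SE 0.077, edgeR adjusted p = 0.421). The fold was 1.33 in WT, 1.16 in the pair labelled KO, 1.05 in L101P and then 1.53 in E292V and 1.00 in E690K. These steps were set beside those of other genes of the same pair. CAV1 stood at the 97.8th percentile of the log2 changes of the 9459 genes in WT and at the 99.1st in E292V, against the 94.1st in the pair labelled KO, the 62.4th in L101P and the 48.8th in E690K. Without the L101P pair the fitted change was 0.31 (edgeR adjusted p = 0.0434), without either L101P library 0.31 (0.0166 and 0.0164), with no filter 0.26 (0.00429) and without the E292V pair 0.17 (0.862). With the 2 labels of the KO pair exchanged it was 0.18 (0.9997).

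The ETV5 log2 difference of transduced from untreated was 0.09 in WT, -0.04 in the pair labelled KO and -0.02 in E690K, and it was -0.08 in L101P and -0.16 in E292V (fitted change -0.04, SE 0.052, edgeR adjusted p = 0.948). It was higher in the transduced library of 1 line of 5. NAPSA had a fitted change of -0.40 (SE 0.31), LAMP3 -0.19 (SE 0.39), SFTPD 0.10 (SE 0.47), SFTPC -0.87 (SE 0.91) and NKX2-1 -1.56 (SE 1.03), with edgeR adjusted p from 0.852 to 0.989. The NAPSA value was 0.17 with the labels of the KO pair exchanged. Single libraries moved the lowest genes: SFTPC was at -0.15 without the L101P pair and at -1.41 without the library labelled KO transduced. NKX2-1 was at -0.97 without transduced WT, at -2.17 without untreated E292V and at -0.55 with the labels of the KO pair exchanged.

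Among the 6 other genes of the caveolae list that averaged 1 CPM or more, CAV2, the neighbour of CAV1 in the genome, had the highest correlation with it. CAV2 encodes caveolin-2 and ends 16244 bases before CAV1 starts. Its untreated levels ran from 81.1 CPM in the library labelled KO to 121 CPM in E690K, and its transduced levels from 98.6 CPM in L101P to 138 CPM in E292V. Over the 10 libraries, which share lines in pairs, the Pearson correlation with CAV1 was 0.93 and Spearman's rho 0.93, as a description. For CAVIN1 the values were 0.52 and 0.75, for PACSIN2 0.29 and 0.18, for EHD2 -0.01 and 0.09, for CAVIN3 -0.21 and -0.05, and for CAVIN2 -0.66 and -0.32. Of the 8 genes of the caveolae list 7 were tested, and 1 was called in E292V and 1 in E690K, beside 1.05% and 5.38% of all genes. CAVIN1 was higher in E690K than in WT (log2 fold change 0.50, SE 0.069, edgeR adjusted p = 0.00139), and CAVIN2 was lower in E292V (-0.80, SE 0.16, edgeR adjusted p = 0.0353), the line with the most CAV1. The CAVIN2 call was lost in 7 of 19 alternatives, and its value was -0.53 without transduced E292V. No gene of the list was called in the line labelled KO, in L101P or for the vector. The 7 genes had a median log2 fold change of -0.09 in KO and 0.10 in L101P and then 0.01 in E292V and 0.25 in E690K. Over all genes tested the medians lay between -0.02 and 0.00.

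The wider surfactant and type 2 list of 23 genes, in which 8 of the 10 members stand, showed scattered calls. Of its 15 tested genes, 1 was called in the line labelled KO (lower), 2 in L101P (1 higher, 1 lower), 0 in E292V and 3 in E690K (2 higher, 1 lower), beside 1.8%, 3.94%, 1.05% and 5.38% of all genes tested. HHIP, a hedgehog-binding protein, was the lower gene in all 3, but it averaged under 1 CPM. LPCAT1, an enzyme of surfactant phosphatidylcholine remodelling, was at 16.9 to 24.1 RPKM and was higher in E690K (log2 fold change 0.36, SE 0.070, edgeR adjusted p = 0.0110). MUC1, a membrane mucin, was higher in L101P (0.84, SE 0.19, edgeR adjusted p = 0.0313), and DMBT1, a scavenger receptor protein, in E690K (3.74, SE 0.61, edgeR adjusted p = 0.00398), although it too averaged under 1 CPM. On the log2 scale the 15 genes had a median of 0.15 in KO and 0.18 in L101P, -0.01 in E292V and -0.07 in E690K. HHIP, LPCAT1, MUC1 and DMBT1 were named after their values were seen, as were CAVIN1 above and GPRC5A, DUSP4 and ETV4 below. The MUC1 call was lost in 9 of 19 alternatives and that of LPCAT1 in 4, for both among them without the untreated WT library.

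Of the 13 tested genes of the type 1 list, which includes CAV1 and 3 other caveolar genes, the called ones were 1 higher in the line labelled KO, 2 higher in L101P, 1 lower in E292V and 3 higher in E690K, beside the same shares of all genes. LMO7, a protein of cell junctions, rose in KO (log2 fold change 0.56, SE 0.11, edgeR adjusted p = 0.0214) as well as in L101P (0.63, adjusted p = 0.00790) and E690K (0.63, adjusted p = 0.00503). GPRC5A, a receptor of lung epithelium, was higher in L101P (0.66, edgeR adjusted p = 0.0384) and in E690K (0.89, edgeR adjusted p = 0.00637). DESeq2 did not call it in L101P (adjusted p = 0.205), where its edgeR value was 0.32 without transduced L101P. The remaining calls were those of CAVIN1 and CAVIN2 above. The 13 genes had a median of -0.09 in KO and -0.10 in L101P and then 0.01 in E292V and 0.23 in E690K.

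Around ETV5, the list of 14 fibroblast growth factor and MAPK feedback genes had all its members tested. None was called in the line labelled KO or in E292V, 2 were higher in L101P, and 2 were higher and 1 lower in E690K, again beside those shares. FGFR3, a fibroblast growth factor receptor, was the lower one in E690K (log2 fold change -0.58, SE 0.12, edgeR adjusted p = 0.0151). DUSP4, a phosphatase that acts on MAP kinases, was higher in L101P (0.54, edgeR adjusted p = 0.0416) and in E690K (0.51, edgeR adjusted p = 0.0416), with a value in L101P of 0.33 without transduced L101P. ETV4 in E292V was just outside the threshold (-0.61, SE 0.13, edgeR adjusted p = 0.0545) and was called in 7 of 19 alternatives, and ETV5 in the same line was at -0.13. Over the 10 libraries ETV5 and ETV4 had a Pearson correlation of 0.58 and a Spearman's rho of 0.44, and CAV1 and ETV4 of -0.82 and -0.71.

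**Figure D4:**
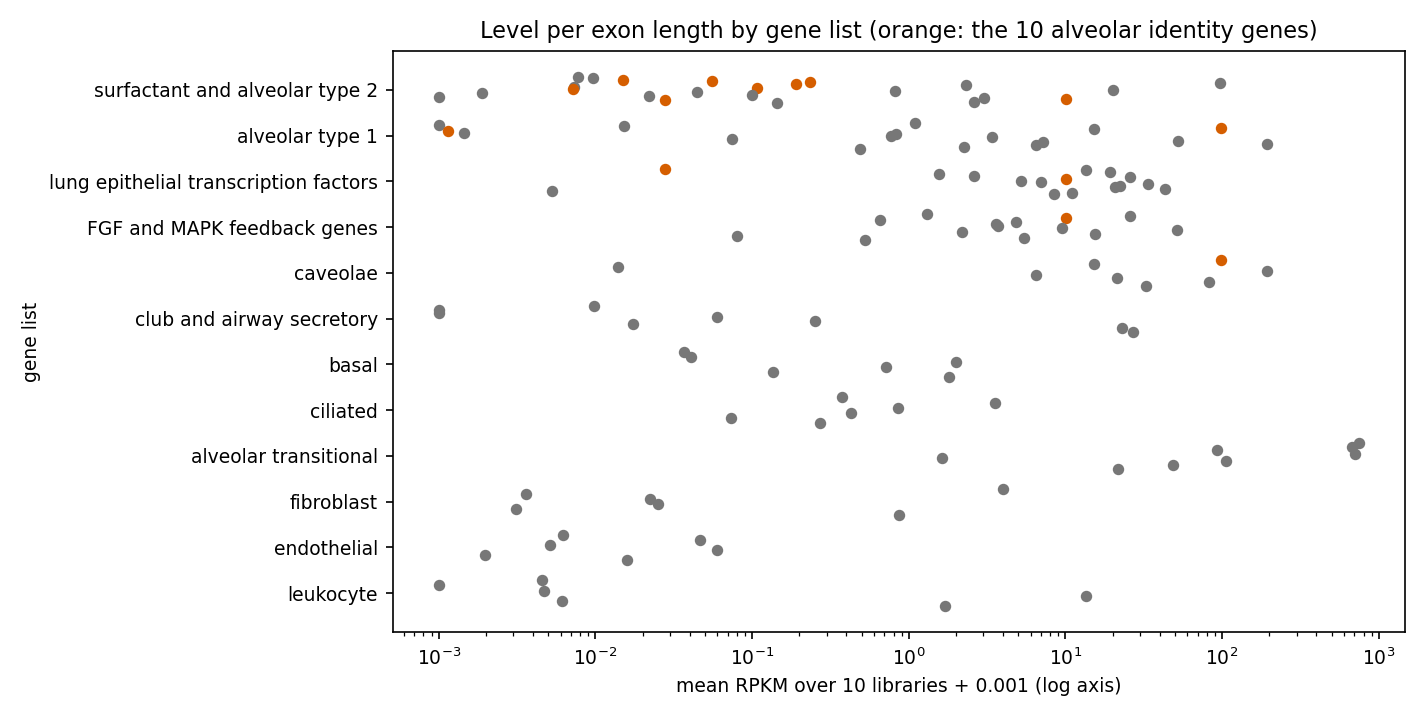
Mean RPKM over the 10 libraries plus 0.001 (log axis) for the genes of each list, with 1 point per gene and the 10 alveolar identity genes in orange. CAV1 at 99.0 and ETV5 at 10.0 RPKM stand among expressed genes of their lists, and the other 8 orange points lie at or below 0.233 RPKM.

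Likeness across the table was measured for the 2 members above 1 CPM as the Pearson correlation of log2(CPM + 0.5) over the 10 libraries, among 12961 genes whose mean reached 1 CPM. The 2 genes closest to CAV1 were AFAP1, an actin filament binding protein, at 0.97 and EPHB2, an ephrin receptor, at 0.96 (Spearman's rho 0.90 and 0.98). The 3 closest to ETV5 were HP1BP3, a chromatin protein, at 0.92, NOTCH3 at 0.88 and MNT, a partner of MAX, at 0.87 (rho 0.93, 0.76 and 0.73). The libraries come in pairs of 1 line each, and over the 5 line means 3 other genes led for each: CCDC9B, PABPC4 and CLIC3 for CAV1, and DHRS12, LYPLA2 and PAX7 for ETV5. ETV5 and CAV1 themselves had a correlation of -0.39 (rho -0.27).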

How the data were processed

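RNA of 10 A549 libraries was measured with a total-RNA kit, per the labels. The authors deposited 1 table of whole-number read counts per gene. The submitters' processing notes name featureCounts, Subread, edgeR, limma and GRCh38, without roles; annotation and strand use are not given in the sources used here. Of counts from 1 to 10, 81.4% were even, against 51.5% above 1000, as when both mates of a pair are counted. Wilson intervals (95%) were therefore computed on count divided by 2; they cover counting error only, since reads carry no molecular identifiers.

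With edgeR 4.0.16 (R 4.3.3), filterByExpr kept 17978 of 33551 genes, TMM factors were 0.972 to 1.03, and a quasi-likelihood fit with line and vector as terms (10 libraries, residual degrees of freedom 4) was tested with Benjamini-Hochberg adjustment over all genes at 0.05. There is 1 library for each line and vector status, so the lines are the pairs for the vector effect, and the error of a line contrast is the departure from additivity. Standard errors are the log2 fold change over the square root of F. The fit was also run on simulated data, with changes planted only for KO and the vector in genes with ample counts. The outcome is not given here and does not bear on the low members. RPKM used the merged length of all exons of a gene in GENCODE release 29. Promoters came from RefSeq (GRCh38.p14).

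The members and gene lists were chosen with earlier results of these data known. Named genes were all 10 members, ABCA3 and EGFP, for each line contrast the 3 higher and 3 lower list genes with the widest called change, a mean of at least 1 CPM and the same direction in both pairs, and the 3 genes most like each member above 1 CPM, of which 1 is not reported here. Alternatives were DESeq2 1.42.0 (Wald test) and its size factors, no filter, at least 10 counts in every library, halved counts, exchanged KO labels, no pairing, and leaving out each library or line.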

Additional observations from a re-analysis of the deposited data

Results flagged for a closer look

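Among 29 sets of 5 values of the members (levels by treatment and changes by line), 3 were flagged. In each, the gap of a value to its nearest neighbour exceeded Dixon's limit of 0.71 of the range. The rate of about 1 in 20 behind that limit holds for continuous values and not for sets made mostly of 0 counts. The ETV5 level of untreated L101P, 64.7 CPM, stood above the other 4 untreated libraries. The other 2 come from the single HOPX count: the untreated WT level of 0.0118 CPM, and the log2 change of -0.034 in WT, beside 0 in the other lines. With 1 value apart from 4 equal ones, the gap is the whole range by construction.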

How the results depend on the processing

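The call of CAV1 in the test over the 5 lines held in 21 alternatives. The number of members called against WT, 0 for each line, became 1 (CAV1) for E292V, E690K and KO with no filter and for E292V under DESeq2, and leaving out libraries gave 0 to 1 for E292V and E690K. For the vector it became 1 with no filter and 0 to 1 with libraries left out. Without the pairing by line (no replicate block) the CAV1 vector change was 0.28 (edgeR adjusted p = 0.9998), and the number of members called remained 0. Reversals were not listed for the line contrasts of the low members. Among the remaining member values, NAPSA reversed in the vector comparison, to 0.17 with the KO labels exchanged. With libraries left out, ETV5 reversed in E690K (-0.15 to 0.031) and in L101P (-0.021 to 0.16), and SFTPD in the vector comparison (-0.051 to 0.36). Over 23 settings, 583 tests of the other members called 0, with a smallest adjusted p of 0.105. Counts over the whole table depended on the settings: 25 to 1226 for KO (323), 180 to 1967 for L101P (709), 13 to 810 for E292V (189), 169 to 2147 for E690K (967), 931 to 4555 over the 5 lines (2337) and 0 to 237 for the vector (0), where the values in parentheses are those of the analysis as described. The cause was not tested. Of the 36 calls of list genes other than the members against WT, 3 (CAVIN1, PHLDA1 and SFN in E690K) held in all 19 alternatives and the others were lost in 1 to 11 of them, with adjusted p up to 0.465 and no reversal: 22 were lost without untreated WT, 23 without transduced WT, 20 without untreated E690K, 20 with the KO labels exchanged and 4 under DESeq2 (GPRC5A, KRT15 and KRT8 in L101P and KRT19 in E690K). Depth limits the 8 low members, for which a count of 0 allows up to 0.129 CPM. A fold change left by 1 library of an arm assumes that the library varies like the others.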

Other observations

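Other epithelial and non-epithelial lists gave calls in some lines and none in others, and no test compares the lists. Of the 8 genes of the alveolar transitional list, named for the state in which type 2 cells become type 1 cells, 0 were called in the line labelled KO, 4 in L101P (3 higher, 1 lower), 0 in E292V and 4 in E690K (3 higher, 1 lower), beside 1.8%, 3.94%, 1.05% and 5.38% of all genes. Its simple keratins were abundant, with means of 746 RPKM for KRT8, 678 for KRT18 and 705 for KRT7. KRT19, another simple keratin, was higher in L101P (log2 fold change 1.24, SE 0.26, edgeR adjusted p = 0.0211) and in E690K (1.03, SE 0.26, edgeR adjusted p = 0.0368). Its L101P value ran from 0.59 without transduced L101P to 1.76 without untreated L101P. MDK, the growth factor midkine, was lower in L101P and in E690K (-0.53 and -0.60, edgeR adjusted p = 0.00983 and 0.00339).

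Of the 4 tested genes of the club and airway secretory list, 1 was called in L101P and 1 in E292V, and 0 in KO and E690K. Of all genes tested, 3.94% were called in L101P, 1.05% in E292V, 1.8% in KO and 5.38% in E690K. MUC5B, a secreted airway mucin, was higher in L101P (log2 fold change 1.77, SE 0.38, edgeR adjusted p = 0.0241; 0.94 without transduced L101P), and SPDEF, a factor of mucous cells, was lower in E292V (-1.02, SE 0.20, edgeR adjusted p = 0.0275; -0.66 without transduced E292V). MUC5B and SPDEF averaged 23.1 and 27.1 RPKM, against 0.253 for BPIFB1, 0.0591 for CYP2F1, 0.0163 for BPIFA1 and 0.00886 for SCGB1A1. SCGB3A1 and SCGB3A2 of the same list were at 0 in all libraries. Of the 5 tested basal genes, 2 were higher in L101P and 1 in E690K, beside the same shares of all genes. TP63, the basal cell factor, was among the first (1.69, SE 0.36, edgeR adjusted p = 0.0227; 1.00 without transduced L101P), and KRT15, a basal keratin, was higher in E690K (1.27, SE 0.27, edgeR adjusted p = 0.0165; 0.84 without untreated E690K). In L101P the basal genes NGFR, KRT5 and DLK2 were at 0.39, -0.24 and -0.19 without passing the test. In E690K TP63, NGFR, KRT5 and DLK2 were at 1.05, 0.32, 0.05 and -0.40, also without passing it. KRT5 averaged 0.0358, KRT14 0.0397 and NGFR 0.135 RPKM, against 0.716 for TP63, 1.80 for DLK2 and 2.00 for KRT15. Of the 15 tested transcription factors, ID2 was higher in the line labelled KO (0.47, SE 0.097, edgeR adjusted p = 0.0321) and ELF3 lower in E690K (-0.46, SE 0.11, edgeR adjusted p = 0.0368). These calls too stand beside 1.8% of all genes in KO and 5.38% in E690K.

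The fibroblast list had 4 tested genes and calls of 1 in E292V and 1 in E690K, beside 1.05% and 5.38% of all genes. COL1A1 was higher in E292V (1.42, SE 0.26, edgeR adjusted p = 0.0214). LUM was higher in E690K (1.02, SE 0.26, edgeR adjusted p = 0.0371), where COL1A1 was at -0.42 and PDGFRA at -2.53 without passing the test. COL1A1 and LUM averaged 3.97 and 0.866 RPKM over the 10 libraries. The rest of the list lay far lower, with COL1A2 at 0.00262, COL3A1 at 0.0213, PDGFRA at 0.0241 and DCN at 0.00210 RPKM. In CPM, COL1A1 alone averaged 39.0 and PDGFRA 0.234. Of the 2 tested leukocyte genes, CD68 was higher in L101P (0.61, SE 0.14, edgeR adjusted p = 0.0366; 0.31 without transduced L101P), where 3.94% of all genes were called. CD68, PDGFRA, KRT7, KRT8 and KRT18 were named after their values were seen. The 6 endothelial genes summed to 0.229 to 1.37 CPM in the 10 libraries, the ciliated list to 17.0 to 41.0 CPM, the basal list to 14.3 to 46.0, the leukocyte list to 22.6 to 49.6 and the fibroblast list to 16.6 to 119 CPM, and their part in any result was not tested.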
